A study of Mus musculus with 12 samples.

Results

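Trem2, Gpnmb, Cd68, Lgals3, Cd9, Spp1, Itgax and Mmp12, 8 genes that mark lipid-associated or scar-associated macrophages, were followed across 3 groups of livers with diet-induced steatohepatitis. They were chosen by name, and all 8 have a row in the deposited table of 11791 genes. Male mice aged 10 weeks were kept for 3 weeks on a diet without methionine and choline (MCD), which leaves the liver fatty and inflamed. Total liver RNA was sequenced as 12 pools of 2 animals each, 4 pools per group, so that each p-value measures the spread between such pools. The control group carried the genotype Lyzs cre, in which Cre recombinase is driven by the lysozyme 2 locus and acts in myeloid cells. The KO group carried the same Cre with deletion of the stress kinases p38γ and p38δ (genotype label Lyzs cre p38g/d). Mice of the anti-Ly6G group had the control genotype and were given antibody to Ly6G, which neutrophils bear on their surface. MCD diet, Lyzs cre and the strain label C57BL/6 were common to the 3 groups, so neither Cre alone nor the diet alone has a comparison here. The antibody samples are titled GR1, while their source names give Ly6G. Antibodies to GR1 can also bind Ly6C, a surface protein of monocytes, and which clone was used is not given in the sources used here. In number, the protocol's 12 males per genotype exceed the animals in 4 such pools.

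A further label names the origin of the mitochondria, and the protocol describes conplastic animals, in which nuclear and mitochondrial genomes come from different strains. It reads C57 for the 4 control pools and KO pools 1 and 2, and NZB for KO pools 3 and 4 and the 4 anti-Ly6G pools. Antibody and label therefore cannot be told apart between anti-Ly6G and control, and the KO group is the only one that holds both. Recovered depth was 14.4 to 19.9 M reads per control pool, 18.8 to 22.3 M per KO pool and 13.1 to 21.0 M per anti-Ly6G pool. Levels are given as the deposited signal, which stands for reads per M reads of a scaled library (RPM), and 3 reads correspond to 0.125 to 0.242 RPM. In whole liver the deleted kinase gene Mapk12 lay at 1.75 to 2.71 RPM in control and 1.63 to 3.06 RPM in KO pools. These ranges do not separate the groups, and a search by name found no row for Mapk13. Summed signal of 9 hepatocyte markers was 109689 to 153725 RPM in a pool, against 122 to 858 RPM for the 8 macrophage genes together. Control pool 4 held the highest control value, and control pool 1 the lowest, for 8 of the 8 genes, so results are also given without control pool 4 where that changes them.

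Lipid-associated macrophages are phagocytes that take up lipid and dying cells in steatotic liver, in adipose tissue and in atherosclerotic plaques. TREM2, a receptor for lipids and lipoproteins, passes its signal through the adaptor TYROBP to the kinase SYK and is required for much of this state. In steatohepatitis such cells gather around fat-laden hepatocytes and along fibrous septa, where they carry a lysosomal and matrix-remodelling repertoire that resident Kupffer cells express little of. The genes are not confined to macrophages: Spp1 is also made by bile duct cells, Cd9 by many epithelial and endothelial cells and platelets, and Lgals3 by several leukocytes.

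The 8 genes are protein-coding and lie on 7 chromosomes of the mouse genome (GRCm38, GENCODE vM21). Trem2 is at chr17:48346401-48354147 (+), Itgax at chr7:128129547-128150657 (+) and Cd9 at chr6:125460266-125494791 (-). The lysosomal genes are Cd68 at chr11:69664213-69666153 (-) and Gpnmb at chr6:49036546-49070929 (+). The secreted products come from Spp1 at chr5:104435118-104441050 (+), Lgals3 at chr14:47367751-47386160 (+) and Mmp12 at chr9:7344381-7369499 (+). Of the annotated 25-base words of Cd9, 76.1% occur in no other gene, against 84.6% for Spp1, 88.3% for Itgax, 91.2% for Mmp12 and 98.8% to 100% for the other four. Annotated genes also overlap Spp1 (Gm42793, same strand), Cd9 (Gm28809 and Gm26728, opposite strand) and Mmp12 (Mmp1b, opposite strand). How shared reads were assigned and whether strand was used is not given in the sources used here, so the values of Cd9, Spp1 and Mmp12 may hold reads of these neighbours.

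The sequences before the transcription starts of 4 members are shown because each holds the letters of an AP-1 site, TGANTCA, the element bound by Fos and Jun dimers. They are the 250 bases upstream of a RefSeq start (GRCm38.p6), printed 5′ to 3′ on the gene's strand, with the motif matches in capitals. The motifs were picked after the sequences and the values had been seen.
Trem2, chr17:48346151-48346400 (+): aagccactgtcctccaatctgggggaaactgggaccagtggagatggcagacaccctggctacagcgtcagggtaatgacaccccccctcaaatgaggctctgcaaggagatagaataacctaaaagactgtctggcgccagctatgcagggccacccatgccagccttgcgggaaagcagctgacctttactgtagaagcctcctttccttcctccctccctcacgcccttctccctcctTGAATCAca
Cd68, chr11:69666171-69666420 (-): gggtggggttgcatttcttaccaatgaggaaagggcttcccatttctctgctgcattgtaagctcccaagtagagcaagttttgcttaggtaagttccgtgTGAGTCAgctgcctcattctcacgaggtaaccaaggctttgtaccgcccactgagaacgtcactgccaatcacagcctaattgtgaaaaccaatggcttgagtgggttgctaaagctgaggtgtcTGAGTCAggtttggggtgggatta
Itgax, chr7:128129300-128129549 (+): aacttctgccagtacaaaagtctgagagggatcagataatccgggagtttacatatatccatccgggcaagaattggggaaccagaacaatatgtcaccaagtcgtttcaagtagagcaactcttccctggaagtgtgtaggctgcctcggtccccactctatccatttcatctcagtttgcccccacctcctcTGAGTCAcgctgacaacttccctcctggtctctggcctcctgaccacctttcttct
Mmp12, the further downstream of its RefSeq starts, chr9:7347124-7347373 (+): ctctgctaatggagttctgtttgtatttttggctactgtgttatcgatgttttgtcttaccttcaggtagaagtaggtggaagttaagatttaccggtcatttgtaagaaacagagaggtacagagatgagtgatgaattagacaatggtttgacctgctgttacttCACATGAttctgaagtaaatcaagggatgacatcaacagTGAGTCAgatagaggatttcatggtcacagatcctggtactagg
The match lies 9 bases upstream of the Trem2 start, 149 and 24 bases upstream in Cd68, 56 in Itgax and 44 in Mmp12. The Mmp12 stretch also holds the M-box TCATGTG, bound by the MITF/TFE family of lysosomal regulators, on the opposite strand and 83 bases upstream. Over windows of 300 bases (250 before and 50 after each start, both strands searched), TGANTCA occurred for 5 of the 8 genes, the fifth being Gpnmb with a match after its start, and for 8.97% of 27025 genes. The PU.1 letters GAGGAAGT, read by the myeloid factor PU.1, occurred for 2 of the 8 (Spp1 and Mmp12) and for 3.69% of genes. TCATGTG occurred for 1 of the 8 and 4.31% of genes, and the E-box CACGTG for 0 of the 8 and 8.09% of genes. These matches describe letters in a window and say nothing of binding or of why a gene moved.

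Most of the macrophage genes were lower in the livers of antibody-treated mice than in both other groups. Against control, 7 of the 8 fell and 7 had every anti-Ly6G pool below every control pool, where 15.3% of all genes fell and 13.1% were non-overlapping in that direction (30.4% passed in either direction). Group means were lower by 1.55 times (Spp1) to 7.13 times (Gpnmb) for these 7, and by 1.18 times for Cd9, which did not pass. Against anti-Ly6G, 8 of the 8 were higher in KO, with every KO pool above every anti-Ly6G pool, where 13.6% of all genes were higher, 13.8% non-overlapping in that direction and 26.8% called in either direction. Between KO and control none of the 8 passed and all 8 overlapped, although 8 of 8 means were higher in KO; 1.12% of all genes were called, and 5.73% lay wholly above control. The median log2 change of the 8 was -1.38 for anti-Ly6G against control, 1.83 for KO against anti-Ly6G and 0.42 for KO against control, while the median of all genes was 0.00, -0.01 and 0.00. The comparisons share pools, so their values are set side by side and not counted as separate support. In whole liver, fewer macrophages and less of these transcripts per macrophage cannot be told apart.

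**Figure D1:**
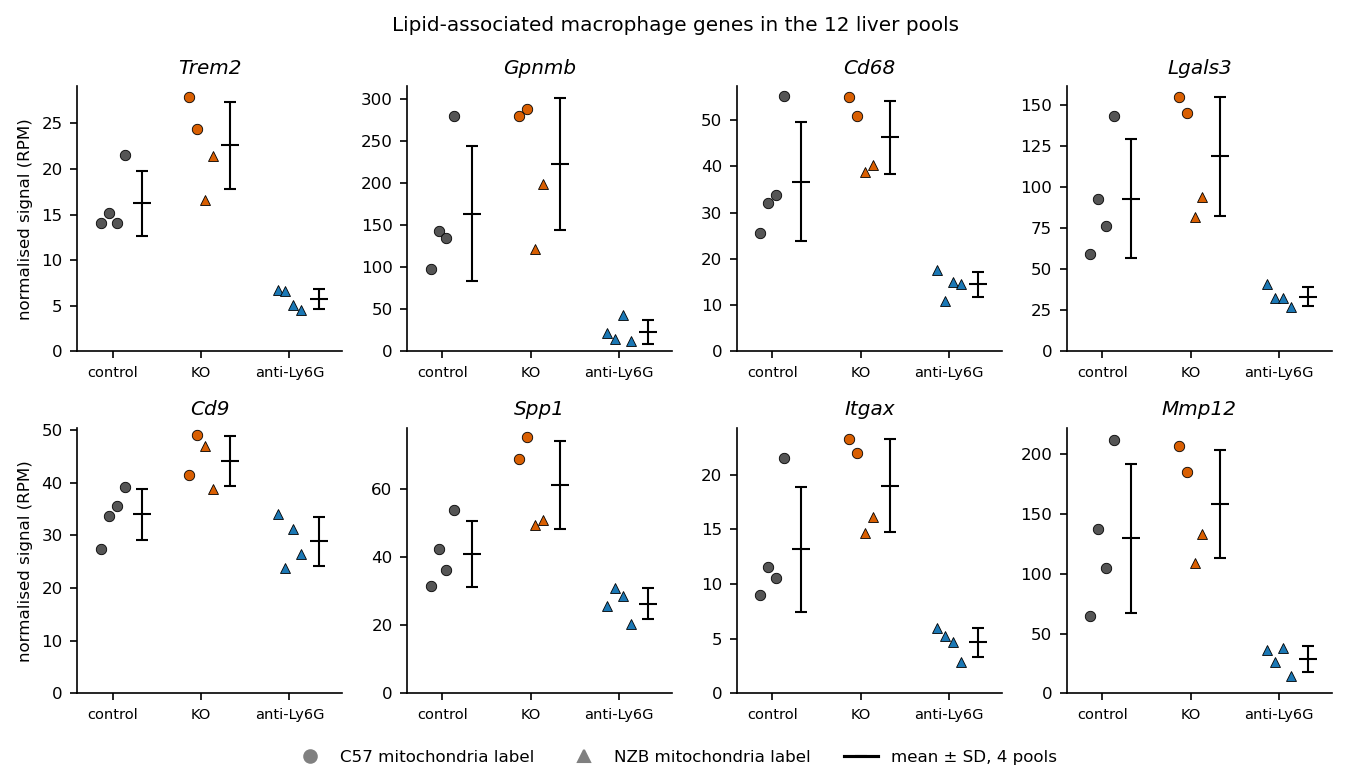
Normalised signal (RPM, linear axis from 0) of the 8 genes in each of the 12 liver pools, with the group mean ± SD beside the 4 pools of each group. Circles are pools labelled C57 for mitochondria and triangles pools labelled NZB; for Trem2 the anti-Ly6G pools lie at 4.53 to 6.70 RPM, below the control pools at 14.1 to 21.5 RPM and the KO pools at 16.6 to 27.9 RPM.

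Among the surface receptors, Trem2 read 14.1, 15.2, 14.1 and 21.5 RPM in control pools 1 to 4. It read 27.9, 24.4, 16.6 and 21.4 RPM in KO pools 1 to 4, and 6.70, 6.59, 5.06 and 4.53 RPM in anti-Ly6G pools 1 to 4. The anti-Ly6G pools were the 4 lowest, control pool 4 stood with the KO pools, and KO pool 3 fell between the control values. Trem2 means were 16.2 ± 3.57 RPM in control pools, 22.6 ± 4.78 in KO pools and 5.72 ± 1.09 in anti-Ly6G pools (SD, n = 4 pools each). By limma-trend, with Benjamini-Hochberg adjustment over all 11791 genes, Trem2 fell by 1.42 on the log2 scale in anti-Ly6G against control (SE 0.18, adjusted p = 0.000110). Against anti-Ly6G, KO livers had more Trem2 by 1.89 (SE 0.18, adjusted p = 1.47e-05), a ratio of means of 3.95.

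Itgax encodes CD11c, the αX chain that pairs with the β2 integrin chain on dendritic cells and activated macrophages. It read 8.95, 11.6, 10.6 and 21.5 RPM in control pools 1 to 4, then 23.2, 21.9, 14.6 and 16.2 RPM in the KO pools. The anti-Ly6G pools read 5.94, 5.22, 4.72 and 2.83 RPM for Itgax. These 4 were again the lowest, and control pool 4 lay among the KO pools, above the next control value of 11.6 RPM. Itgax averaged 13.2 ± 5.69 RPM in control pools, 19.0 ± 4.23 in KO pools and 4.68 ± 1.33 in anti-Ly6G pools (SD, n = 4). Itgax fell by 1.36 (SE 0.26, adjusted p = 0.00192) in anti-Ly6G against control and was higher by 1.93 (adjusted p = 0.000236) in KO against anti-Ly6G.

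Cd9, a tetraspanin that organises receptors and integrins in the membrane, was the member that did not pass in anti-Ly6G against control. Control pools 1 to 4 read 27.5, 33.7, 35.6 and 39.1 RPM, KO pools 41.5, 49.1, 46.9 and 38.8 RPM and anti-Ly6G pools 34.01, 23.7, 31.2 and 26.5 RPM. The anti-Ly6G values of Cd9 ran into the control values, and only the KO pools stood wholly above the anti-Ly6G pools. Means were 33.97 ± 4.88 RPM in control pools, 44.1 ± 4.75 in KO pools and 28.9 ± 4.62 in anti-Ly6G pools. The difference of anti-Ly6G from control was -0.23 (95% interval -0.51 to 0.04, adjusted p = 0.179), and the rise of Cd9 in KO against anti-Ly6G was 0.61 (adjusted p = 0.00361). Whether Cd9 differs from the other members in its response was not tested.

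Both lysosomal genes were lower in anti-Ly6G than in control livers, Gpnmb more than any other member. Gpnmb encodes a transmembrane glycoprotein of endosomes and lysosomes that macrophages induce when lysosomes are loaded. Its control pools 1 to 4 read 97.6, 143, 135 and 279.9 RPM, its KO pools 280.3, 289, 121 and 199.5 RPM, and its anti-Ly6G pools 22.1, 14.5, 43.3 and 11.96 RPM. The highest anti-Ly6G pool of Gpnmb stayed below the lowest control pool, and anti-Ly6G pool 3 read above the other three. Gpnmb averaged 164 ± 79.9 RPM in control pools, 222 ± 78.5 in KO pools and 23.0 ± 14.2 in anti-Ly6G pools (SD, n = 4). It fell by 2.87 (SE 0.39, adjusted p = 0.000227) against control and was higher by 3.35 (adjusted p = 9.14e-05) in KO against anti-Ly6G, a ratio of means of 9.69.

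Cd68, the glycoprotein macrosialin of late endosomes used widely to stain macrophages, read 25.6, 32.1, 33.8 and 55.2 RPM in control pools 1 to 4. KO pools read 55.0, 51.0, 38.9 and 40.4 RPM and anti-Ly6G pools 17.6, 10.999, 15.0 and 14.5 RPM. Control pool 4 matched the highest KO pool, and no anti-Ly6G pool reached a control or KO pool. Cd68 averaged 36.7 ± 12.8 RPM in control pools, 46.3 ± 7.90 in KO pools and 14.5 ± 2.73 in anti-Ly6G pools. Cd68 fell by 1.27 (SE 0.20, adjusted p = 0.000660) in anti-Ly6G against control and was higher by 1.64 (adjusted p = 0.000133) in KO against anti-Ly6G.

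Of the secreted proteins, Mmp12 is the macrophage metalloelastase, which digests elastin. Mmp12 read 64.4, 137, 105 and 212 RPM in control pools 1 to 4, 206, 185, 109 and 133 RPM in KO pools, and 36.1, 26.1, 38.2 and 14.3 RPM in anti-Ly6G pools. Control and KO pools of Mmp12 were intermixed, with control pool 4 the highest of the 12, and the anti-Ly6G pools lay apart below them. The means were 129.6 ± 62.3 RPM in control pools, 158 ± 44.9 in KO pools and 28.7 ± 10.9 in anti-Ly6G pools (SD, n = 4). Mmp12 fell by 2.12 (SE 0.35, adjusted p = 0.000831) against control, 4.52 times on the scale of means, and was higher by 2.49 (adjusted p = 0.000331) in KO against anti-Ly6G.

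Lgals3 encodes galectin-3, a lectin that binds β-galactosides and is found in the cytosol, on damaged lysosomes and outside the cell. Lgals3 read 59.1, 92.7, 76.6 and 143 RPM in control pools 1 to 4, 155, 145, 82.1 and 94.1 RPM in KO pools, and 40.9, 32.6, 32.6 and 27.2 RPM in anti-Ly6G pools. KO pools 1 and 2 and control pool 4 were high, KO pool 3 fell among the other control pools and KO pool 4 just above them, and the anti-Ly6G pools were the lowest. Lgals3 averaged 92.9 ± 36.2 RPM in control pools, 119 ± 36.3 in KO pools and 33.4 ± 5.64 in anti-Ly6G pools. It fell by 1.40 (SE 0.25, adjusted p = 0.00138) in anti-Ly6G against control and was higher by 1.78 (adjusted p = 0.000331) in KO against anti-Ly6G.

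Spp1 encodes osteopontin, a secreted phosphoprotein that binds integrins and CD44 and accompanies liver fibrosis. Its control pools 1 to 4 read 31.6, 42.6, 36.2 and 53.9 RPM, its KO pools 69.1, 75.3, 49.5 and 51.0 RPM and its anti-Ly6G pools 25.9, 30.9, 28.7 and 20.4 RPM. Control pool 1 was just above the highest anti-Ly6G pool, and control pool 4 above KO pools 3 and 4. Means of Spp1 were 41.1 ± 9.66 RPM in control pools, 61.2 ± 12.9 in KO pools and 26.5 ± 4.54 in anti-Ly6G pools (SD, n = 4). Spp1 fell by 0.61 (SE 0.18, adjusted p = 0.0196) in anti-Ly6G against control. Without control pool 4 that difference was -0.47 (adjusted p = 0.0570), and without anti-Ly6G pool 4 it was -0.50 (adjusted p = 0.0533). Between KO and anti-Ly6G the rise of Spp1 was 1.19 (adjusted p = 0.000507). The bile duct marker Sox9 fell in anti-Ly6G against control, from 9.49 to 5.88 RPM (-0.65, adjusted p = 0.00360), and its part in the result for Spp1 was not tested.

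**Figure D2:**
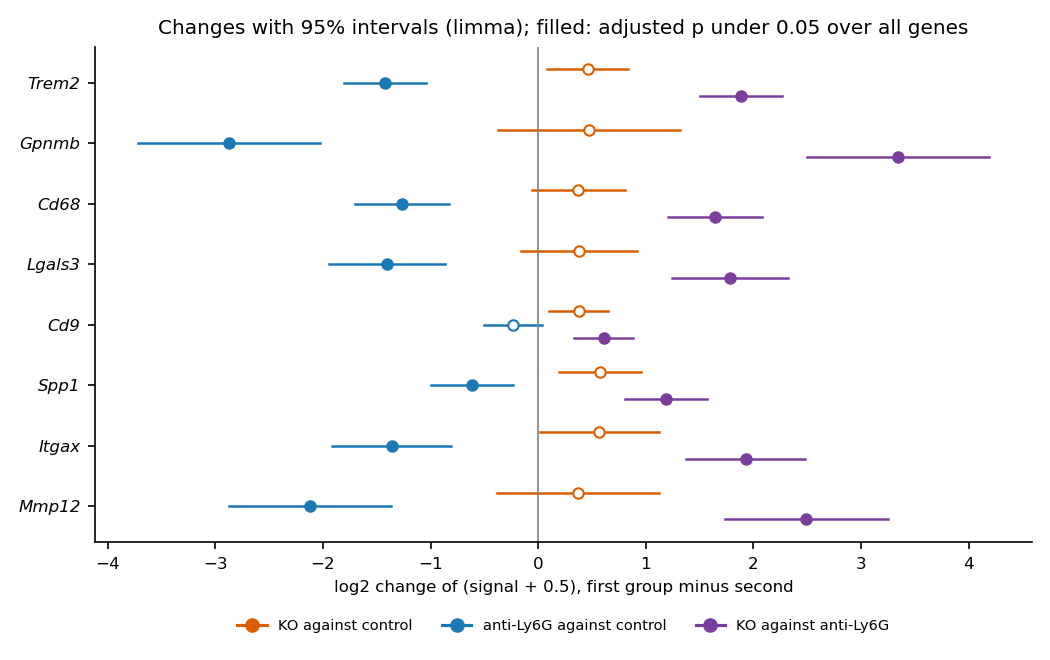
Log2 change of (signal + 0.5) of the 8 genes in the 3 comparisons, first group minus second, as points with 95% intervals from limma; filled points have an adjusted p under 0.05 over all genes. The blue points (anti-Ly6G against control) run from -2.87 for Gpnmb to -0.23 for Cd9, the only open one, and the orange points (KO against control) lie between 0.37 and 0.57, all open.

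None of the 8 genes differed between KO and control livers beyond the spread between pools at the threshold used. The differences of KO from control ran from 0.37 (Mmp12 and Cd68) to 0.57 (Spp1 and Itgax) on the log2 scale. Spp1 had the lowest adjusted p, 0.116, with a 95% interval of 0.19 to 0.96, followed by Cd9 (0.38, interval 0.10 to 0.65, adjusted p = 0.142). Trem2 differed by 0.46 (interval 0.08 to 0.84, adjusted p = 0.184), and Itgax by 0.57 (interval 0.02 to 1.12, adjusted p = 0.252). The intervals of the other 4 held 0 in this fit, from Gpnmb at -0.37 to 1.32 to Cd68 at -0.06 to 0.81. This fit therefore showed neither a rise nor the lack of one for them. With the mitochondria label as covariate, the intervals of Cd68 (0.07 to 1.09) and Lgals3 (0.21 to 1.31) lay above 0. Those of Gpnmb (from -0.07) and Mmp12 (from -0.17) held 0 there. With C57-labelled pools only, Cd68 (from 0.01), Lgals3 (from 0.11) and Gpnmb (0.14 to 1.67) lay above 0, and Mmp12 (from -0.14) held 0. None of these 4 passed after adjustment in either fit. At an unadjusted p under 0.05, limma with group only called 4 of the 8 (Spp1, Cd9, Trem2 and Itgax), where 18.9% of all genes were so called. The edgeR quasi-likelihood test on recovered reads called 0 of the 8 (1.3% of all genes), and DESeq2 called 1 (4.89% of all genes), Spp1 (0.58, adjusted p = 0.0402). Without control pool 4 limma called Spp1 alone (0.71, adjusted p = 0.0468), and the 8 differences then ran from 0.45 (Cd9) to 0.83 (Itgax). For 5 of the 8 every KO pool lay above control pools 1 to 3, as for 11.8% of all genes, a count made after the values had been seen.

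Within the KO group the genes split by the mitochondria label. KO pools 1 and 2, labelled C57, were both above KO pools 3 and 4, labelled NZB, for 7 of the 8 genes, against 26.9% of all genes. The ratio of the C57 to the NZB mean was 1.77 for Gpnmb, 1.70 for Lgals3, 1.61 for Mmp12, 1.47 for Itgax, 1.44 for Spp1, 1.38 for Trem2 and 1.34 for Cd68. Cd9 was the exception, with a ratio of 1.06 and overlapping pools. The median log2 difference of the 8 was 0.53, and that of all genes -0.01. With 2 pools on each side these are values without a test, and the numbering of pools and the label cannot be told apart. Kupffer cell markers went the other way in the same pools, with a mean log2 deviation from the KO average of -0.30 and -0.20 in pools 1 and 2 and of 0.25 in each of pools 3 and 4.

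Pools of a single label again put KO above anti-Ly6G for the 8 genes. Their differences of KO from control were larger than with all pools. The NZB-labelled KO pools lay above every anti-Ly6G pool for 8 of the 8 genes, against 21.6% of all genes. The C57-labelled KO pools lay above every control pool for 6 of the 8, Cd68 and Mmp12 being the exceptions, against 14.4% of all genes. A limma fit of KO pools 3 and 4 against the anti-Ly6G pools called all 8 higher, from 0.57 for Cd9 (adjusted p = 0.0433) to 2.91 for Gpnmb (adjusted p = 0.00531), where 13.2% of genes were called. A fit of KO pools 1 and 2 against control called none of the 8, where 0.858% of genes were called, with Spp1 at 0.83 (adjusted p = 0.0769) and Gpnmb at 0.91 (adjusted p = 0.218). With the label as a covariate over the 12 pools, KO against anti-Ly6G again gave 8 of 8 higher (20.1% of all genes called) and KO against control 0 of 8 (0.67%).

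Antibody and label could be separated only through the KO pools, and only if the label acts alike with and without the deletion. That could not be tested, since no other group holds both labels. With the label as a covariate, whose size is then set by the 4 KO pools alone, the differences of anti-Ly6G from control shrank for each of the 8 genes. Trem2 alone still passed (-0.97, adjusted p = 0.0470), where 8.25% of all genes did. Gpnmb stood at -2.01 (adjusted p = 0.0690), Mmp12 at -1.43 (0.139), Cd68 at -0.85 (0.126), Itgax at -0.82 (0.230) and Lgals3 at -0.64 (0.277, all adjusted p in brackets). Spp1 was at -0.10 (95% interval -0.67 to 0.48) and Cd9 at -0.15 (interval -0.64 to 0.33). The sign stayed negative for 8 of 8, and the intervals of Lgals3, Itgax, Cd9 and Spp1 held 0.

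**Figure D3:**
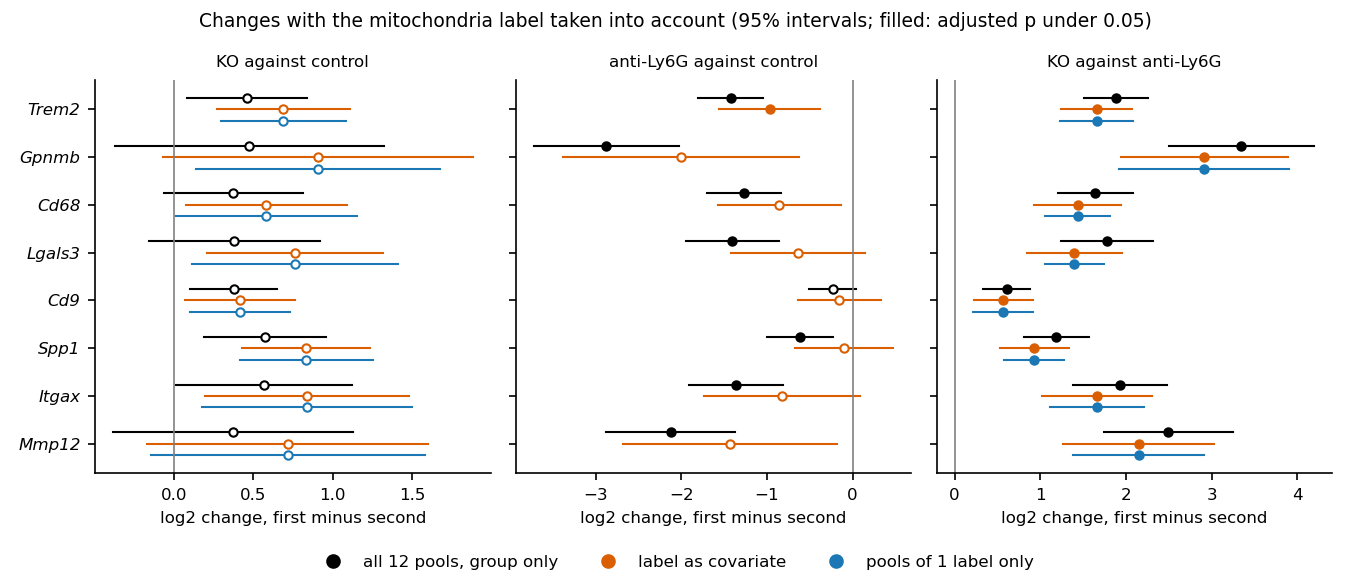
Log2 changes with 95% intervals for the 3 comparisons from the fit with group only (black), with the mitochondria label as covariate (orange) and with pools of a single label only (blue); filled points have an adjusted p under 0.05. KO against anti-Ly6G stays filled for the 8 genes in each fit, whereas in anti-Ly6G against control only Trem2 (-0.97) stays filled with the covariate, and no single-label fit exists there.

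The genes varied together from pool to pool within a group. Once each group's mean was removed, the correlation of log2 values between members over the 12 pools ran from 0.21 (Trem2 with Cd9) to 0.92 (Lgals3 with Itgax), with a median of 0.75 over 28 pairs; the genes of a pool share its library and its animals. Lgals3 had the highest mean correlation with the others (0.82), then Mmp12 and Itgax (0.81 each), and Cd9 the lowest (0.51). Averaged over the 8 genes, control pool 4 stood 0.61 above its group and control pool 1 stood at -0.47. KO pools 1 and 2 were at 0.29 and 0.26, and KO pools 3 and 4 at -0.37 and -0.18. Anti-Ly6G pools 1 and 3 were at 0.24 and 0.22 and anti-Ly6G pool 4 at -0.40. The spread was widest for Gpnmb, whose anti-Ly6G pool 3 stood 1.08 above its group on this scale. In control pool 4 the mean deviation of pan-macrophage markers was 0.34, of monocyte markers 0.29 and of stellate cell markers 0.28, and their part in that pool's high values was not tested.

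**Figure D4:**
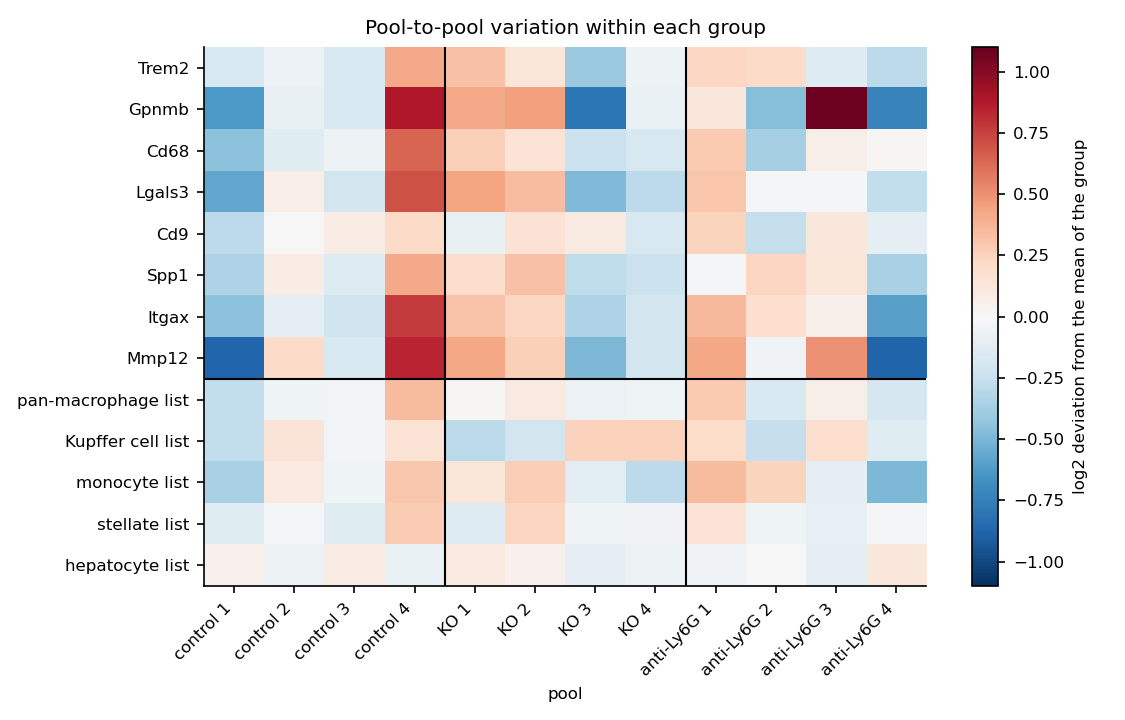
Heat map of the log2 deviation of each pool (columns) from the mean of its own group, for the 8 genes (upper rows) and the mean of 5 marker lists (lower rows). Control pool 4 is red for the 8 genes and reaches a mean of 0.61, and the Kupffer cell row is blue in KO pools 1 and 2 (-0.30 and -0.20) where most of the 8 genes are red.

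The 5 genes named here lie outside the set and followed its pool-to-pool pattern most closely, by mean correlation with the 8 over the 12 pools after removal of group means. They were Capg (0.86), an actin-capping protein of macrophages, Cyth4 (0.85), Lpl (0.85), the lipoprotein lipase, Cotl1 (0.85), an actin-binding protein, and Gpr137b (0.84), a lysosomal membrane protein. In anti-Ly6G against control Lpl fell by 1.605 (adjusted p = 0.000266), Gpr137b by 1.27 (0.000543), Capg by 1.21 (0.00395) and Cotl1 by 0.95 (0.000886), with adjusted p in brackets. Cyth4 did not pass (-0.52, adjusted p = 0.0867), but was called lower by DESeq2 (-0.55, adjusted p = 0.0479) and by limma without control pool 1 (-0.68, adjusted p = 0.0345). In KO against control none of these passed, their differences lying between 0.13 (Gpr137b) and 0.54 (Lpl). Against anti-Ly6G, KO livers had more of each, from 0.99 for Cyth4 (adjusted p = 0.00490) to 2.15 for Lpl (adjusted p = 3.85e-05).

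Signal per kilobase of annotated exon, the only scale on which levels of different genes are set side by side, put Lgals3 first in each group. In control it stood at 49.998 ± 19.5 RPM per kb, followed by Cd68 (29.2 ± 10.2), Gpnmb (25.1 ± 12.3), Spp1 (24.9 ± 5.86), Mmp12 (17.9 ± 8.61) and Cd9 (16.6 ± 2.39). Trem2 (3.28 ± 0.722) and Itgax (2.74 ± 1.18) were the lowest in control, and their ranges overlapped each other but no other member. Neighbours from Cd68 to Cd9 did not differ beyond their spread in control. In KO livers the order per kb began Lgals3 (64.0 ± 19.5), Spp1 (37.2 ± 7.86), Cd68 (36.8 ± 6.28) and Gpnmb (34.2 ± 12.05). In anti-Ly6G livers Spp1 (16.1 ± 2.76 RPM per kb) and Cd9 (14.1 ± 2.26) came next to Lgals3 (18.0 ± 3.04), ahead of Cd68 (11.6 ± 2.17), while Mmp12 (3.96 ± 1.51) and Gpnmb (3.52 ± 2.18) lay far below. The exon length pools all annotated transcripts, which lowers the level of a gene with rarely used long transcripts.

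A wider list of the same macrophage programme held lipid handling and lysosomal genes. Of 32 measured genes in that list, 21 fell and 4 rose in anti-Ly6G against control, with a median of -0.52. Here and for the lists that follow, 15.3% of all genes fell and 30.4% passed in either direction. Lpl, which frees fatty acids from lipoproteins, went from 121.7 ± 45.02 to 38.5 ± 8.57 RPM. Fabp5, a fatty acid carrier, went from 30.2 ± 12.7 to 10.6 ± 6.97 RPM (-1.56, adjusted p = 0.00342), with overlapping pools. The lysosomal tetraspanin Cd63 fell by 1.31 (40.6 ± 10.7 to 15.9 ± 3.28 RPM, adjusted p = 0.000146) and the lysosomal phospholipase family member Pld3 by 1.06 (adjusted p = 0.000125). Mmp14, a membrane-bound collagenase, fell by 0.50 (adjusted p = 0.00234). Ctsd, the protease cathepsin D, fell by 0.39 (adjusted p = 0.0205), a call lost without control pool 4 (-0.29, adjusted p = 0.0547) or without anti-Ly6G pool 2 (-0.36, adjusted p = 0.0585). The call was also lost with the label as covariate (-0.17, adjusted p = 0.595). Apoe, made by hepatocytes in bulk as well as by macrophages, did not pass (-0.07, adjusted p = 0.729). The 4 that rose were Plin2, Creg1, Nceh1 and Lipa.

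Of the same 32 genes, 23 were higher and none lower in KO than in anti-Ly6G, led by Cd63 (1.69, adjusted p = 2.73e-05), Pld3 (1.29, adjusted p = 3.60e-05) and Lpl (2.15). In that comparison, here and for the lists that follow, 13.6% of all genes were higher and 26.8% called in either direction. Against control, KO livers had 1 of the 32 higher and none lower. It was Anxa5, annexin A5, a binder of phosphatidylserine, which went from 100.5 ± 19.5 to 178 ± 16.3 RPM (0.84, adjusted p = 0.0253). Its call was lost without control pool 1, 2 or 3 or KO pool 2 or 3 (adjusted p 0.0525 to 0.0827), with the replicate block (0.0515), with pools of a single label (0.0659) and with the label as covariate. Next by p were Ctsl, cathepsin L (-0.36, adjusted p = 0.0728), and Lipa, lysosomal acid lipase (0.22, adjusted p = 0.166), neither of which passed. Ctsl was called lower by DESeq2 (adjusted p = 0.00642), with array quality weights (adjusted p = 0.0208) and without control pool 4 (-0.43, adjusted p = 0.0307). Over the 184 genes of this and the other lists described below, limma called 2 in KO against control, 50 reached an unadjusted p under 0.05, edgeR called 3 and DESeq2 15.

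TREM2's signalling partners fell in part. Of 13 measured, 5 were lower and 2 higher in anti-Ly6G against control, with a median of -0.44. Tyrobp, the adaptor that carries the TREM2 signal, went from 33.6 ± 9.89 to 16.7 ± 4.08 RPM (-0.97, adjusted p = 0.00284), and Syk, the kinase it recruits, from 17.1 ± 4.69 to 8.69 ± 2.74 RPM (-0.94, adjusted p = 0.00365). Pik3cd, a leukocyte PI3-kinase subunit, fell by 0.77 (adjusted p = 0.00445). The 2 that were higher were Pik3r1, a PI3-kinase regulatory subunit, and Adam17, the sheddase that can cut TREM2 from the cell. In KO against anti-Ly6G 8 of the 13 were higher and 1 lower, led by Tyrobp (1.31, adjusted p = 0.000534), Syk (1.13, adjusted p = 0.00144) and Inpp5d (0.99, adjusted p = 0.00178), the phosphatase SHIP1. In KO against control none of the 13 passed by limma, with Tyrobp at 0.33 (adjusted p = 0.380).

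The list of β2 integrins, with their ligands and the proteins that activate them, holds partners of the Itgax product. All 6 measured genes of it (Itgb2, Itgam, Itgal, Icam1, Fermt3 and Tln1) were lower in anti-Ly6G against control, with a median of -0.71. Itgb2, the shared β2 chain, went from 41.9 ± 16.9 to 14.7 ± 4.63 RPM (-1.45, adjusted p = 0.00138). Itgam, the CD11b chain found on neutrophils, monocytes and macrophages, went from 9.19 ± 4.06 to 2.49 ± 0.694 RPM (-1.62, adjusted p = 0.00126). Only 30.7% of the annotated 25-base words of Itgam occur in no other gene, so its values may hold reads of other genes. Fermt3, the kindlin that activates these integrins, fell by 0.81 (adjusted p = 0.00219). In KO against anti-Ly6G all 6 were higher, with Itgam at 2.06 (adjusted p = 0.000296), Itgb2 at 1.82 (adjusted p = 0.000360) and their ligand Icam1 at 0.82 (adjusted p = 0.000415). None of the 6 passed in KO against control (Itgb2 0.37, adjusted p = 0.466, and Itgam 0.45, adjusted p = 0.417).

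The receptors of osteopontin and GPNMB mostly did not pass. Of 9 measured, 2 were lower and none higher in anti-Ly6G against control, and their median of -0.04 lay near that of all genes. Cd44, the hyaluronan and osteopontin receptor, went from 18.0 ± 5.68 to 11.1 ± 2.54 RPM (-0.64, adjusted p = 0.0246). Its call was lost without control pool 2 or 4 or without anti-Ly6G pool 2, 3 or 4 (adjusted p 0.0504 to 0.0687), and with only both groups in the fit (0.0517). The call was lost with the label as covariate too (-0.58, adjusted p = 0.309). Itga9, an integrin chain that binds a cryptic osteopontin site, fell by 0.39 (adjusted p = 0.0229), a call lost without control pool 4 (-0.32, adjusted p = 0.0662) or without anti-Ly6G pool 4 (-0.34, adjusted p = 0.0541). The αV chain Itgav (-0.15, adjusted p = 0.282) and the α4 chain Itga4 (0.23, adjusted p = 0.119) did not pass. In KO against anti-Ly6G 3 of 9 were higher and none lower, led by Cd44 (0.90, adjusted p = 0.00465), where 26.8% of all genes were called in either direction. The others, Itgb5 and Itgav, lost the call with pools of a single label (adjusted p = 0.184 and 0.112) and under further alternatives.

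Relatives of the other members moved in both directions. Of 12 tetraspanins besides Cd9, 2 rose and 1 fell in anti-Ly6G against control, a share no higher than the 30.4% of all genes. Tspan31 rose by 0.43 (adjusted p = 0.00631), Tspan3 fell by 0.55 (adjusted p = 0.00832), and Cd81, a partner of CD9 in the membrane, did not pass (0.12, adjusted p = 0.361), but was called higher with the label as covariate (0.45, adjusted p = 0.0458). The other riser was Cd151 (0.27, adjusted p = 0.0188), whose call was lost without control pool 1 or 2 or anti-Ly6G pool 2 (adjusted p 0.0502 to 0.0565). Cd151 also lost it with the label as covariate (0.28, adjusted p = 0.213). Of 5 galectins and galectin-binding proteins, 2 fell, namely Lgals4 (-0.79, adjusted p = 0.000137) and Lgals3bp, a secreted ligand of galectin-3 (-0.62, adjusted p = 0.00234). Lgals1 did not pass (-0.28, adjusted p = 0.273). Of 9 matrix proteases, inhibitors and the substrate elastin, 5 fell and 1 rose. Mmp2, a gelatinase of fibroblasts, fell by 0.95 (adjusted p = 0.00124), the inhibitor Timp2 by 0.59 (adjusted p = 0.00356) and the inhibitor Timp1 by 0.78 (adjusted p = 0.0117), and Mmp15, a membrane-type protease, rose by 0.72 (adjusted p = 0.00334). Of these lists none had a member that passed in KO against control by limma, while DESeq2 called Mmp15 there. In KO against anti-Ly6G the higher and lower calls of the 3 lists were 5 and 1, 3 and 0, and 6 and 0.

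Regulators of the lysosomal and macrophage programme gave 6 lower and 1 higher of 14 in anti-Ly6G against control. Csf1, the growth factor for macrophages, fell by 0.75 (adjusted p = 0.00131). Nr1h3, the oxysterol receptor LXRα, which hepatocytes also express, rose by 0.50 (adjusted p = 5.89e-05). In KO against anti-Ly6G 4 of the 14 were higher and 1 lower. None passed by limma in KO against control, where DESeq2 called Nr1h3.

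**Figure D5:**
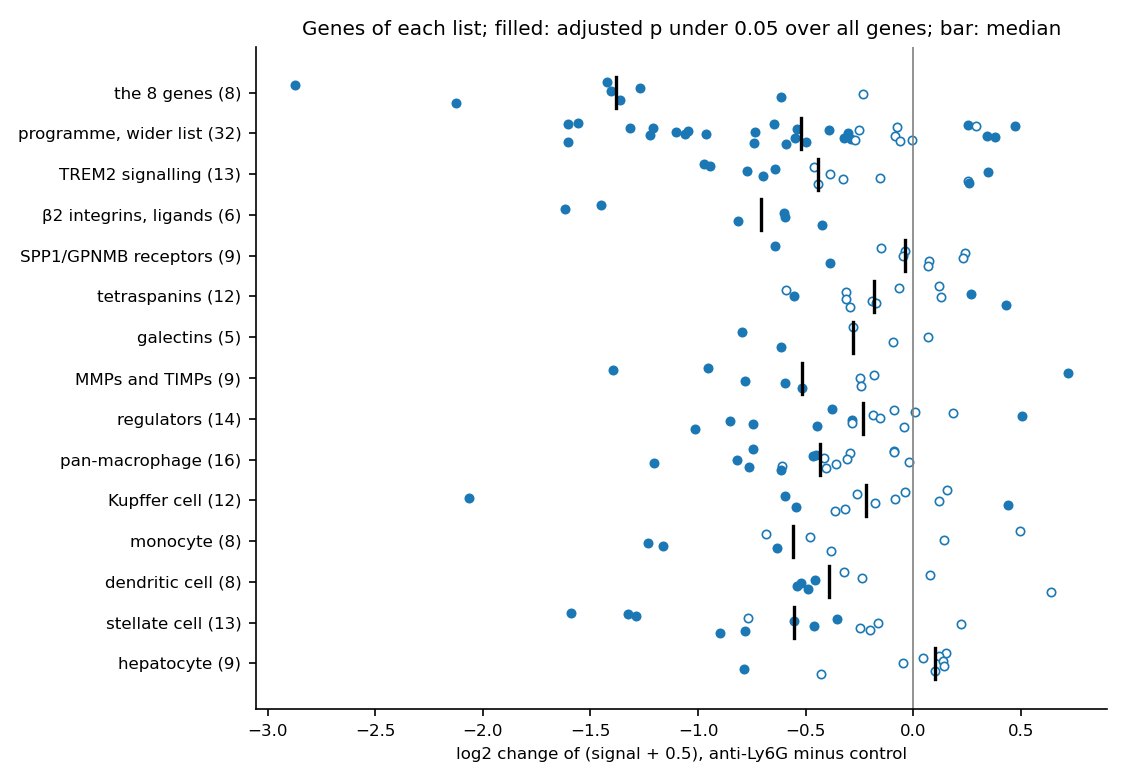
Log2 change in anti-Ly6G against control of every measured gene in each list shown, with the number of measured genes in brackets, the list's median as a bar and filled points for an adjusted p under 0.05 over all genes. Lists of neutrophil, cholangiocyte, endothelial and T, NK and B cell markers are not drawn (medians -0.96, -0.42, -0.25 and -0.91). The 8 genes have a median of -1.38, the wider programme list of -0.52 and the β2 integrins with their ligands and activators of -0.71, while the receptors of osteopontin and GPNMB lie around -0.04.

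Markers of other cells also moved between anti-Ly6G and control. Of 16 pan-macrophage markers, 7 fell and none rose, their summed signal running from 766 to 1115 RPM in control, 1073 to 1231 in KO and 514 to 715 in anti-Ly6G pools. Laptm5 fell by 1.21 (adjusted p = 0.000148), Fcer1g by 0.82 (adjusted p = 0.00183), Cd74 by 0.62 (adjusted p = 0.00207), and Csf1r, the receptor for Csf1, went from 85.2 ± 18.2 to 51.0 ± 12.05 RPM (-0.74, adjusted p = 0.00615). Adgre1, which encodes F4/80, did not pass (18.8 ± 5.67 to 17.4 ± 4.38 RPM, adjusted p = 0.765). Of 12 Kupffer cell markers, 3 fell and 1 rose, and their sums overlapped (583 to 807, 545 to 773 and 529 to 729 RPM in control, KO and anti-Ly6G). Clec4f, restricted to Kupffer cells, stood at 95.5 ± 13.4 RPM in control and 107 ± 20.0 in anti-Ly6G (0.15, adjusted p = 0.497). Among Kupffer cell genes Marco, a scavenger receptor, went from 58.8 ± 15.0 to 14.0 ± 5.21 RPM (-2.06, adjusted p = 8.71e-05), and Id3 fell by 0.54 (adjusted p = 0.00352). The riser was Slc40a1, the iron exporter (0.44, adjusted p = 0.0341), a call lost without control pool 1 or 2 or anti-Ly6G pool 1, 3 or 4 (adjusted p 0.0572 to 0.0920) and after quantile normalisation (0.0575). With the label as covariate Slc40a1 stood at 0.15 (adjusted p = 0.736).

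Recruited-cell and stromal markers moved as well. Of 8 measured monocyte markers 3 fell and none rose: S100a6 by 1.16 (adjusted p = 0.00996), S100a4 by 1.23 (adjusted p = 0.0150) and Fn1, also made by hepatocytes, by 0.64 (adjusted p = 0.0148). All 3 lost the call with the label as covariate. There S100a4 stood at -0.07 (adjusted p = 0.936) and S100a6 at -0.30 (adjusted p = 0.700). Ccr2, the chemokine receptor of inflammatory monocytes, did not pass (0.50, adjusted p = 0.193), but was called higher with array quality weights (0.69, adjusted p = 0.0398) and without anti-Ly6G pool 4 (0.76, adjusted p = 0.0322). Of 8 dendritic cell markers 4 fell, among them the class II genes H2-Ab1 (-0.52, adjusted p = 0.0123) and H2-Aa (-0.54, adjusted p = 0.0146). Of 6 measured neutrophil markers out of 15, 4 fell, with S100a8 at 0.792 ± 0.156 RPM against 2.81 ± 0.626 in control (-1.35, adjusted p = 0.000157). Their summed signal went the other way, with 96.6 to 256 RPM in control, 219 to 568 in KO and 159 to 498 in anti-Ly6G pools. Most of it was Lcn2, also made by hepatocytes, which did not pass (154 ± 60.7 RPM in control, 245 ± 162 in anti-Ly6G, adjusted p = 0.321). The neutrophil genes Ly6g, Elane and Mpo have no row in the deposited data. Of 13 stellate cell markers 8 fell, of 9 endothelial markers 3 and of 9 hepatocyte markers 1, and none of these rose. No measured marker was at 0 in all 12 pools, and the part of any of these cells in the change of the 8 genes was not tested. In KO against anti-Ly6G 13 of 16 pan-macrophage markers, 4 of 8 monocyte, 5 of 8 dendritic cell, 4 of 6 neutrophil and 9 of 13 stellate cell markers were higher, against 1 of 12 Kupffer cell markers. Of the annotated 25-base words of Tagln, a stellate cell and smooth muscle gene, only 36.5% occur in no other gene. In KO against control Tagln was the 1 marker of these cells that passed by limma (0.60, adjusted p = 0.0276). That call was lost without control pool 2 or 3 or KO pool 2 or 3 (adjusted p 0.0663 to 0.0855), with the replicate block (0.0515), with the label as covariate (0.0588) and with pools of a single label (0.0935). Ccr2 (1.00) did not pass there by limma, but was called higher by DESeq2 (adjusted p = 0.0158) and with array quality weights (0.0201). Ccr2 was also called higher without control pool 4 (0.0432) or anti-Ly6G pool 4 (0.0470). Among these markers edgeR also called Pdgfrb, and DESeq2 also called Pdgfrb, Aif1, Chil3, Cx3cr1, Col1a1, Col1a2, Id3 and Kdr. These further calls were counted in either direction, and their directions are not given here.

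Set against single macrophage genes within a pool, comparisons that were picked after the values had been seen, the 8 genes gave different answers. Relative to Adgre1, every anti-Ly6G pool was below every control pool for 7 of the 8, the exception being Cd9. The Trem2 to Adgre1 ratio was 0.733 to 1.19 in control, 0.743 to 1.499 in KO and 0.280 to 0.429 in anti-Ly6G pools. Relative to C1qa the count was 6 of 8, Cd9 and Spp1 being the exceptions. Relative to Csf1r, which itself fell, it was 3 of 8, namely Gpnmb, Cd68 and Mmp12. The share of all genes that separate in such ratios was not computed, so these counts have no background beside them. The Cd9 to Csf1r ratio went the other way, at 0.490 to 0.703 in anti-Ly6G and 0.364 to 0.460 in control pools. The mean Spp1 to Csf1r ratio was also higher in anti-Ly6G, 0.559 against 0.481 in control, with overlapping pools. The Gpnmb to Csf1r ratio was 1.504 to 2.61 in control and 0.221 to 0.796 in anti-Ly6G pools, whereas the Trem2 to Csf1r ratio overlapped (0.168 to 0.217 and 0.0837 to 0.195).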

How the data were processed

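Total liver RNA of 12 mouse pools was read on an Illumina Genome Analyzer IIx (source: per the labels' protocols). The authors deposited a normalised signal per gene. The tools listed, per the submitters' processing notes, are Bowtie2 2.0.6, RSEM 1.2.3, cutadapt 1.2.1 and edgeR, with build GRCm38; their order is not. The gene annotation, the filter behind the 11791 genes and the strand setting were not given in the sources used here. In each of the 12 columns 100% of deposited signal values were whole multiples, within 0.01, of the value of 1 read, and these multiples were taken as reads. A stricter test on low values could be made, and was met, in 4 of these columns; 8 had too few such values.

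The main test was limma-trend (limma 3.58.1, R 4.3.3) on log2(signal + 0.5) over the 12 pools, with group as the only term and Benjamini-Hochberg adjustment at 0.05 over all genes. This scale understates the change of low genes. A filter asking for a mean of 1 in at least 1 group removed 0 genes. Alternatives were edgeR 4.0.16 and DESeq2 1.42.0 on recovered reads, other pseudocounts, filters and scalings, array weights, a replicate block, the mitochondria label as a covariate, pools of a single label, and leaving out each pool. Intervals cover 95%.

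The 8 genes, the 18 other lists and the motifs were chosen with earlier results of these data known. The naming rule took the 8 genes, the 3 genes of lowest p in each other list and fixed partners. Those of the KO comparisons are given in part, and genes of lists without a bearing on the members are left out. Promoter sequences are from RefSeq (GRCm38.p6), where all 8 genes matched.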

Additional observations from a re-analysis of the deposited data

Results flagged for a closer look

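Trem2 in control pool 4 stood apart from the other control pools. It read 21.5 RPM there, against 15.2 RPM in the nearest control pool, and the gap made up 0.843 of the range of the 4 pools, above Dixon's 95% critical value for 4 samples. This was 1 of 24 sets of 4 pools tested (8 genes in 3 groups), and chance flags about 1 in 20. Without that pool Trem2 differed by -1.28 in anti-Ly6G against control (adjusted p = 0.000264) and by 0.60 in KO against control (adjusted p = 0.0714, limma).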

How the results depend on the processing

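Of 184 values of the 8 genes for anti-Ly6G against control under the alternatives, 176 kept sign and call and 8 lost the call: Gpnmb, Cd68, Lgals3, Spp1, Itgax and Mmp12 with the mitochondria label as covariate, and Spp1 without control pool 4 or anti-Ly6G pool 4. The count of members called there was 7, 1 with the covariate, and 6 to 7 with single pools left out. For KO against anti-Ly6G 192 of 192 values kept sign and call, and the count stayed at 8 under each alternative run. For KO against control 190 of 192 did, the count of 0 became 1 (Spp1) with DESeq2, and ranged from 0 to 1 with single pools left out, being 1 without control pool 4. The cause was not tested.

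Over all genes, KO against control called 132, and 577 with DESeq2, 803 with array quality weights, 208 after quantile normalisation, 79 with the label covariate (31.6% of them higher, against 52.3%) and 3 to 319 with single pools left out, the extremes being without control pool 2 and without control pool 4. Anti-Ly6G against control called 3580, 973 with the covariate and 2791 to 3646 with single pools left out. KO against anti-Ly6G called 3157, 1555 with pools of a single label, where fewer samples enter, and 2367 to 3266 with single pools left out. A single-label fit for anti-Ly6G against control could not be run, since the groups share no label.

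Sign changed for Apoe (0.19), Lgals1 (0.29) and Clec4f (-0.36) with the covariate in anti-Ly6G against control. With single pools left out, Adgre1 in that comparison ranged from -0.288 (without control pool 1) to 0.067 (without control pool 4), and Gpr137b in KO against control from -0.024 (without control pool 1) to 0.329 (without control pool 4). None of these had passed. Of 46 other named genes called in anti-Ly6G against control, 34 lost the call with the covariate. Among the 34 were Tyrobp, Syk, Itgam, Itgb2, Fabp5, Lpl, Csf1r, S100a4 and S100a6, while Cd63, Pld3, Laptm5, Marco and S100a8 kept theirs. Pool numbers did not pair the samples: over 12 pairs of same-numbered pools the correlation of deviations from group means ran from -0.209 to 0.172, 4 pairs exceeded 0.1, and 4 of 12 pools correlated best with a pool of their own number. With the replicate block KO against control called 20 genes in all, and the members called were 8 for KO against anti-Ly6G, 7 for anti-Ly6G against control and 0 for KO against control. Trem2 and Itgax had the fewest reads of the 8, and counting error is part of their spread.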
